A study of Rattus norvegicus with 6 samples.

Results

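Messenger RNA of 10 nuclear regulators of mitochondrial and lipid genes was compared in rat hearts after repeated doxorubicin. The genes were listed by symbol for their roles: the coactivators Ppargc1a, Ppargc1b and Perm1, the estrogen-related receptors Esrra, Esrrb and Esrrg, the fatty acid receptors Ppara and Ppard, and the mitochondrial gene regulators Nrf1 and Tfam. All 10 were present among the 17487 gene symbols of the count table, each on 1 row, and all 10 were among the 9205 symbols with enough counts to test. The hearts came from 6 adult male Wistar rats, with no transgene or deletion named in the labels. Of these, 3 received doxorubicin hydrochloride, an anthracycline chemotherapy drug, as 1 injection of 3.75 mg/kg into the tail vein per week over 4 weeks, and 3 control rats had 0.9% sodium chloride injected likewise. Each rat gave 1 library of messenger RNA from heart tissue. The region of the heart, the rats' exact age and the time since the last injection were not stated in the labels.

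These regulators form a layered circuit. The PGC-1 coactivators, encoded by Ppargc1a and Ppargc1b, do not bind DNA themselves but dock on nuclear receptors and on NRF1 and raise transcription of mitochondrial genes. PPAR-alpha and PPAR-delta sense fatty acids and, paired with a retinoid X receptor, switch on genes of fatty acid uptake and oxidation, the main fuel pathway of the adult heart. The estrogen-related receptors, which have no known natural hormone, drive genes of the citrate cycle and the respiratory chain. NRF1 drives nuclear genes for respiratory subunits and for Tfam, and TFAM packages mitochondrial DNA and serves its transcription. Many of these proteins are controlled after translation, so transcript levels describe only part of their activity.

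Promoter sequences are shown for 4 of the genes, 3 that were highest in doxorubicin heart 3 and held a searched motif (Ppargc1a, Esrrg and Ppara) and Perm1, the most counted of the coactivators. They are RefSeq sequences on the GRCr8 rat assembly, given 5′ to 3′ on the gene's strand, and cover the 250 bases before an annotated transcript start. Capitals mark TGACGTCA, the full site of CREB, a factor that answers cyclic AMP, in Ppargc1a. They mark the nuclear receptor core hexamer AGGTCA on the opposite strand in Esrrg and Perm1, and the palindromic NRF1 site in Ppara.
Ppargc1a, chr14:63634058-63634307, + strand: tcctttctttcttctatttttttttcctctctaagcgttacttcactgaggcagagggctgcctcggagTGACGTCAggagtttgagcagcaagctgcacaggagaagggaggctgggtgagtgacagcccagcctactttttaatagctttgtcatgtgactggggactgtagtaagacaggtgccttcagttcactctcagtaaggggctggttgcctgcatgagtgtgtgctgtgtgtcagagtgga
Esrrg, chr13:101755510-101755759, + strand: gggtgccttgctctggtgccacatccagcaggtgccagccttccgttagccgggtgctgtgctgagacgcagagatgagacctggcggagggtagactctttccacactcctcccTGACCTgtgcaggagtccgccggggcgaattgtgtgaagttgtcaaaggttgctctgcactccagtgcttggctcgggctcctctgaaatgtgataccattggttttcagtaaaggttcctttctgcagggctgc
Ppara, chr7:118712357-118712606, + strand: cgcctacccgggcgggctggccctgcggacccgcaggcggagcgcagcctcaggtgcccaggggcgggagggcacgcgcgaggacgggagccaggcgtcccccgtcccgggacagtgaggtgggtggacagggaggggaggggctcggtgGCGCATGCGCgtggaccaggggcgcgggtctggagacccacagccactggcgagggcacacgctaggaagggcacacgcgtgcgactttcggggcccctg
Perm1, chr5:172081999-172082248, + strand: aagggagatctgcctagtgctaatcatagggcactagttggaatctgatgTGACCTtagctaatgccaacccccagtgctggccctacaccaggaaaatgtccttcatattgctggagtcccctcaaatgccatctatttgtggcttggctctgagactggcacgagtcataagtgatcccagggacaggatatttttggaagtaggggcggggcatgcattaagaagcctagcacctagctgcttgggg
RefSeq windows were matched for 9 of the 10 genes, 12 windows in all, and Ppard had no entry. The CREB site lay 181 bases before the start of Ppargc1a, and 1.59% of the 33469 windows of the same length held these letters on either strand. The hexamer lay 135 bases before 1 of the 4 annotated Esrrg starts and 200 bases before the Perm1 start, and 14.1% of windows held it. The NRF1 letters lay 100 bases before the Ppara start, against 0.762% of windows. CCGGAAGT, a site of the respiratory factor GABP, was found in the Tfam window and in 3.10% of all windows. The longer site TNAAGGTCA of estrogen-related receptors, which contains the hexamer, was in 0 of the 12 windows and in 1.04% of all windows. The PPAR response element, searched as a direct repeat of the hexamer with 1 base between, was in 0 of the 12 and in 0.0508% of all. Both strands were searched for each motif. These matches are letters in a window and were not tested as binding sites.

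Libraries held 2219685 to 3508282 counts. Control heart 1 stood apart on the first principal component of all tested genes, at -43.3 against -4.83 to 26.6 for the other 5. Levels are given in CPM, a count scaled to its library's total, with totals adjusted by the trimmed mean of M-values (TMM). Of 4 atrial markers, Myl7 was at 164 CPM in control heart 1 against 2.06 to 6.42 CPM elsewhere, and Myl4 at 68.4 against 5.30 to 26.0 CPM. Sln was at 22.9 CPM in control heart 1 and 16.8 in control heart 3 against 0 to 1.93 CPM elsewhere. Nppa, also a stress gene of the ventricle, was highest in doxorubicin heart 1, at 3252 CPM against 161 to 902 CPM elsewhere. Of 10 cardiomyocyte markers listed, 9 were among the symbols counted and all 9 were detected. The log2 fold change of doxorubicin against control was -0.59 for Mb and -0.73 for Myh6, the markers with the highest mean CPM. It was -0.11 for Tnnt2 and -0.02 for Myl2, and above 0 for Pln (0.17) and Csrp3 (0.46). In all, 7 of the 9 markers lay below 0, with a median of -0.21. Their summed level was 111511 to 130658 CPM in control and 90316 to 104727 CPM in doxorubicin hearts, lower in each treated heart, with 0 of 9 past the adjusted threshold. Macrophage markers summed to 277 to 294 CPM in control and 333 to 548 CPM in doxorubicin hearts, with 0 of 12 past it. Of all tested symbols 0.0543% passed that threshold in edgeR. At an unadjusted p under 0.05 in edgeR there were 3 of 9 cardiomyocyte and 3 of 12 macrophage markers, against 8.10% of all tested symbols. The summed levels were not tested. The 8 adipocyte markers summed to 132 to 154 CPM in control and 84.6 to 105 CPM in doxorubicin hearts. Most of that was Cidea, a lipid droplet gene, at 123 to 148 CPM in control and 77.8 to 92.8 CPM in doxorubicin hearts (edgeR adjusted p 0.202), and Cfd was at 5.396 to 15.9 CPM. Cidec, Ucp1 and Retn were at 0 counts in all 6 hearts, and Adipoq was at 2.67 CPM or less, while the skeletal muscle markers summed to 1.18 to 5.30 CPM. Fewer cells of a type and less RNA per cell cannot be told apart in whole tissue, and the part of these shifts in the results that follow was not tested.

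None of the 10 regulators passed the test. With edgeR's quasi-likelihood test, adjusted over all 9205 symbols by the Benjamini-Hochberg method, 0 of 10 had an adjusted p under 0.05, where 5 symbols in all, 0.0543%, did so. At an unadjusted p under 0.05 there was 1 of 10, Esrrg, against 8.10% of all tested symbols. DESeq2 also gave 0 of 10 past the adjusted threshold, against 0.567% of its symbols, and 1 of 10 at the unadjusted one, against 5.54%. The groups did not overlap for 1 of 10, Nrf1, which was higher after doxorubicin, against 13.4% of all symbols in either direction and 6.39% higher. The log2 fold change of doxorubicin against control was above 0 for 5 and below 0 for 5 (47.9% of all symbols lay below 0), with a median of -0.03, and the median over all tested symbols was 0.02. The 95% intervals of the fold change reached down to 0.462 of control for Ppargc1b and up to 2.69 times control for Esrrg.

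**Figure D1:**
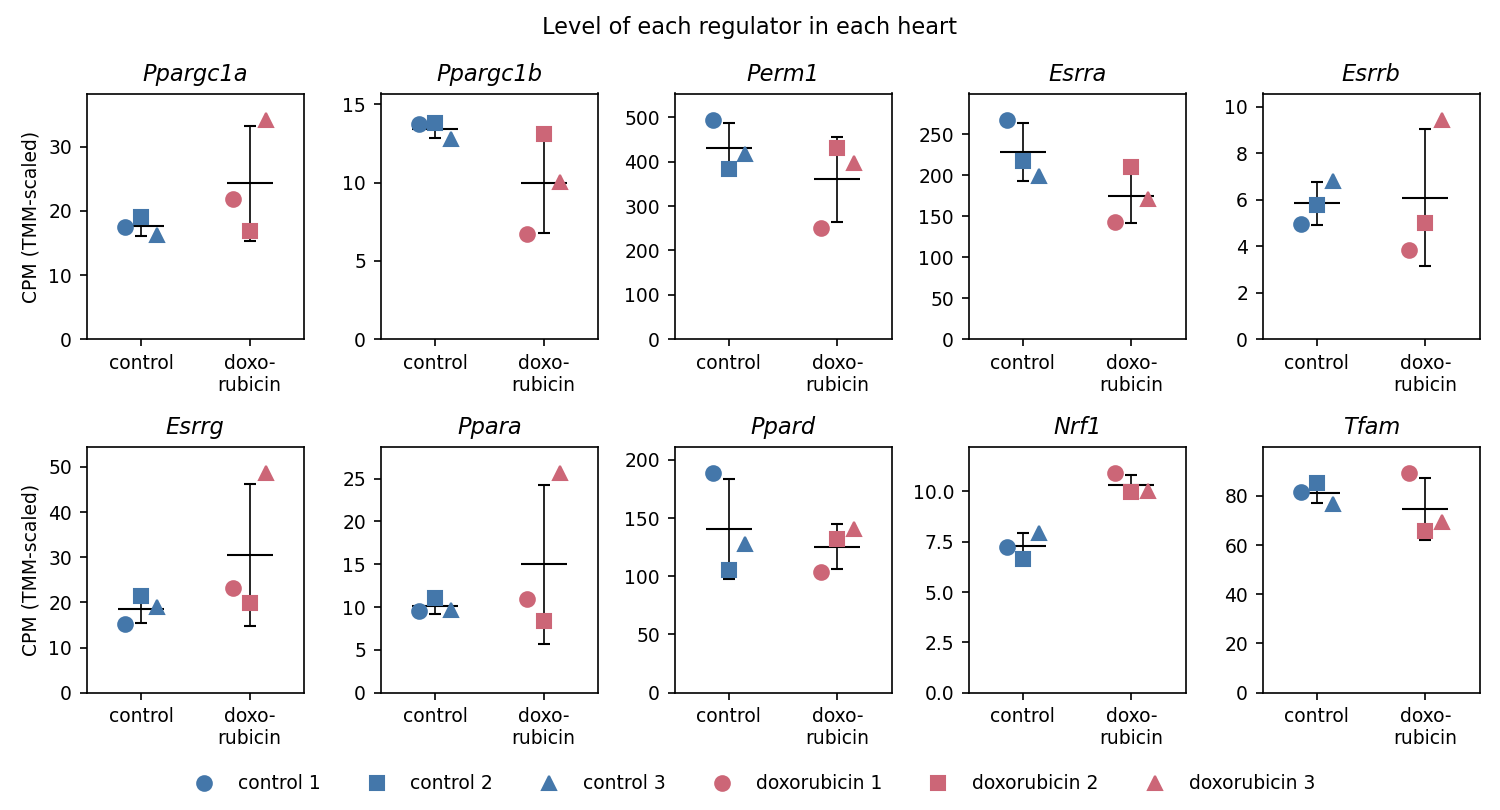
TMM-scaled CPM of each regulator (vertical axes start at 0, with a scale of their own) in 3 control hearts (blue) and 3 doxorubicin hearts (red), with the mean and SD of each group as black bars and the replicate number as the symbol. Only the Nrf1 groups do not overlap, and doxorubicin heart 3 is the highest of 6 for Ppargc1a, Esrrb, Esrrg and Ppara.

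Among the coactivators, Ppargc1a, which encodes PGC-1-alpha, was at 17.6, 19.1 and 16.2 CPM in control hearts 1, 2 and 3 and at 21.8, 16.8 and 34.2 CPM in doxorubicin hearts 1, 2 and 3. Doxorubicin hearts 1 and 3 lay above all controls, and doxorubicin heart 2 lay inside the control range. The difference on the log2 scale was 0.47 (SE 0.29, 95% interval -0.15 to 1.09; edgeR adjusted p 0.715), and it was 0.15 without doxorubicin heart 3. The counts do not separate the transcript forms of Ppargc1a that start at different promoters.

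Ppargc1b, the close relative that encodes PGC-1-beta, was at 13.7, 13.8 and 12.8 CPM in control hearts and at 6.74, 13.1 and 10.02 CPM in doxorubicin hearts 1, 2 and 3. The controls were almost level, and doxorubicin hearts 1 and 3 lay below all of them. For Ppargc1b the log2 fold change was -0.43 (SE 0.32, 95% interval -1.11 to 0.26; edgeR adjusted p 0.770), resting on 21 to 45 counts per library. Without doxorubicin heart 1 it was -0.21, and without doxorubicin heart 2 it was -0.66.

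Perm1, a muscle coactivator induced by PGC-1 and the estrogen-related receptors, was at 494, 383 and 416 CPM in control hearts and at 250, 432 and 397 CPM in doxorubicin hearts 1, 2 and 3. Doxorubicin heart 1 was the lowest, and the other treated hearts lay within the control range. For Perm1 the log2 fold change was -0.26 (SE 0.22, 95% interval -0.72 to 0.20; edgeR adjusted p 0.791) on 780 to 1465 counts. It was -0.051 without doxorubicin heart 1, -0.15 without control heart 1 and -0.40 without doxorubicin heart 2.

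Among the estrogen-related receptors, Esrra, the form most tied to oxidative metabolism and itself a target of PGC-1-alpha, was at 267, 217 and 199 CPM in control hearts and at 143, 209 and 171 CPM in doxorubicin hearts. Doxorubicin hearts 1 and 3 lay below all controls, while doxorubicin heart 2 was above control heart 3. Its log2 fold change was -0.38 (SE 0.20, 95% interval -0.81 to 0.04; edgeR adjusted p 0.644). It was -0.25 without control heart 1 and -0.26 without doxorubicin heart 1.

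Esrrg, a receptor rich in heart and needed for its postnatal oxidative program, was at 15.3, 21.3 and 19.0 CPM in control hearts and at 23.1, 20.0 and 48.6 CPM in doxorubicin hearts 1, 2 and 3. Doxorubicin heart 3 was far above the rest, and doxorubicin heart 2 lay inside the control range. For Esrrg it was 0.73 on the log2 scale (SE 0.33, 95% interval 0.03 to 1.43), with an unadjusted p of 0.043 and an adjusted p of 0.592 in edgeR's fit across all genes. Without doxorubicin heart 3 the log2 fold change was 0.23.

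Esrrb, the member better known from stem cells and the inner ear, was the least counted, with 12 to 32 counts per library. It was at 4.96, 5.78 and 6.82 CPM in control hearts and at 3.85, 4.99 and 9.43 CPM in doxorubicin hearts, so that the treated hearts held both the lowest and the highest value. Its log2 fold change was 0.06 (SE 0.43; edgeR adjusted p 0.985), with a 95% interval of -0.86 to 0.98 that spans 0 widely at this depth.

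Of the fatty acid receptors, Ppara was at 9.55, 11.1 and 9.66 CPM in control hearts and at 10.9, 8.42 and 25.6 CPM in doxorubicin hearts 1, 2 and 3. A single heart set the group difference: doxorubicin heart 3 had 87 counts where the other 5 had 25 to 34. The log2 fold change was 0.58 (SE 0.39, 95% interval -0.27 to 1.42; edgeR adjusted p 0.738) and was -0.049 without that heart.

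Ppard, the form active in most tissues, was at 189, 105 and 128 CPM in control hearts and at 104, 132 and 141 CPM in doxorubicin hearts. Control heart 1 was the highest, and the other 5 ran from 104 to 141 CPM with the groups mixed. On the log2 scale the difference was -0.16 (SE 0.22, 95% interval -0.64 to 0.31; edgeR adjusted p 0.886), and without control heart 1 its sign turned, to 0.11. It was -0.039 without doxorubicin heart 1 and -0.32 without control heart 2.

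Nrf1, nuclear respiratory factor 1, not the stress factor gene Nfe2l1 that also goes by that name, was the single regulator whose groups did not overlap. It was at 7.26, 6.66 and 7.95 CPM in control hearts and at 10.9, 9.98 and 10.02 CPM in doxorubicin hearts, a narrow spread in both groups. Its log2 fold change was 0.49 (SE 0.33, 95% interval -0.21 to 1.19), with an edgeR adjusted p of 0.732. The values rested on 15 to 28 counts in control and 32 to 34 in doxorubicin libraries, and the exact Poisson 95% interval of control heart 3, 5.28 to 11.5 CPM, covered all 3 doxorubicin values. Such intervals cover counting error only.

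Tfam, the mitochondrial transcription factor, was at 81.7, 85.3 and 76.7 CPM in control hearts and at 89.2, 65.5 and 69.3 CPM in doxorubicin hearts. Doxorubicin heart 1 was above all controls and the other treated hearts below them. Its log2 fold change was -0.12 (SE 0.19, 95% interval -0.52 to 0.28; edgeR adjusted p 0.894). It ran from -0.26 without doxorubicin heart 1 to -0.023 without doxorubicin heart 2, and was -0.073 without control heart 2 and -0.058 without doxorubicin heart 3. As a fold of control the 95% interval was 0.695 to 1.22, the narrowest of the 10 on the log2 scale.

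**Figure D2:**
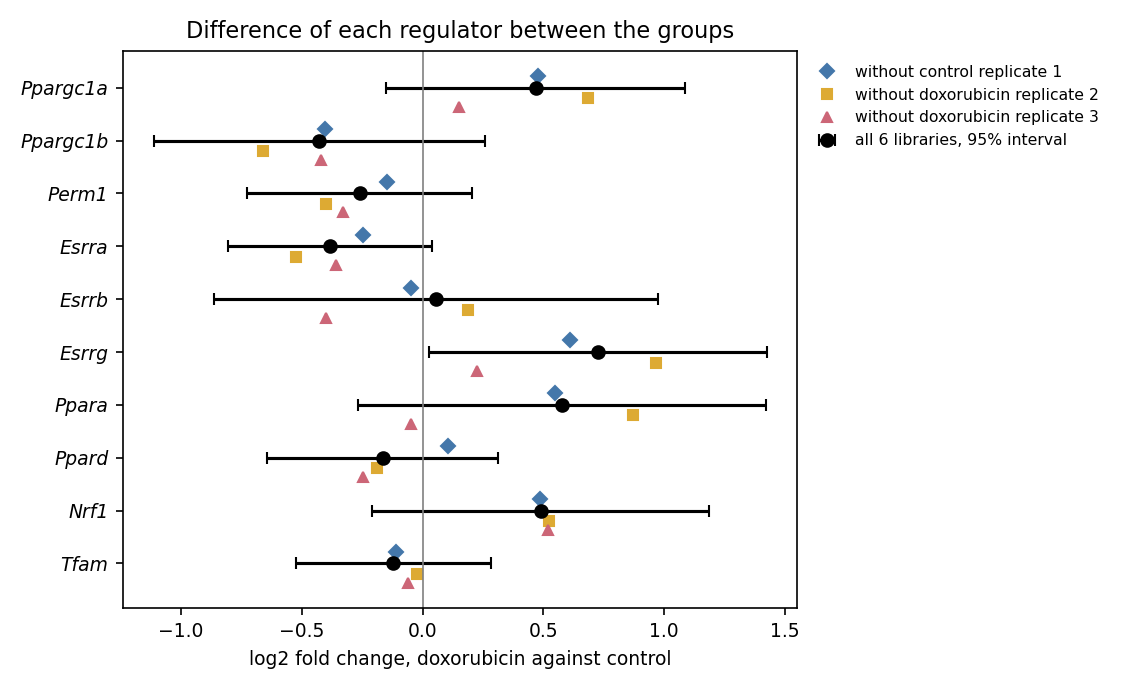
Log2 fold change of doxorubicin against control (horizontal axis) for each regulator, with all 6 libraries (black, bars for the 95% interval of edgeR's quasi-likelihood fit) and without control heart 1, doxorubicin heart 2 or doxorubicin heart 3 (coloured). The interval of Esrrg, 0.03 to 1.43, is the only one that does not reach 0, and its value without doxorubicin heart 3 is 0.23.

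The treated hearts differed among themselves. Doxorubicin heart 3 was the highest of the 6 hearts for 4 of 10 regulators, and 20.6% of all tested symbols had their highest value there. Doxorubicin heart 1 was the lowest for 5 of 10 (Ppargc1b, Perm1, Esrra, Esrrb and Ppard), and 17.4% of all symbols were lowest there. Doxorubicin heart 2 lay inside the control range for 7 of 10 (all but Ppara, Nrf1 and Tfam), as it did for 54.7% of all symbols. When the fit left out doxorubicin heart 2, 4 of 10 regulators had an unadjusted p under 0.05 in edgeR, against 9.53% of 9387 symbols. The groups of 5 of 10 did not overlap, where those of 26.0% of symbols did not: Ppargc1a, Esrrg and Nrf1 were higher and Ppargc1b and Esrra lower. Of these 5, all but Nrf1 had doxorubicin heart 2 inside the control range, so their separation follows from leaving that heart out. In that fit 0 of 10 passed the adjusted threshold, against 0.373% of symbols, and the labels give no reason to set that heart aside. Without doxorubicin heart 3, 0 of 10 had an unadjusted p under 0.05, against 6.42% of symbols, and without control heart 1, 0 of 10, against 5.61%.

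Ratios within a library do not depend on how libraries are scaled to each other. The trend with gene span given below does not cancel in a ratio of a long and a short gene. Esrra and Perm1 are among the shortest spans, Esrrg and Ppargc1a among the longest, and the ratios were not corrected for span. The Ppargc1a to Ppargc1b count ratio was 1.27, 1.38 and 1.26 in control hearts 1, 2 and 3. It was 3.19 and 3.38 in doxorubicin hearts 1 and 3 and 1.28 in doxorubicin heart 2, inside the control range. The mean log2 ratio was 0.38 ± 0.07 in control and 1.26 ± 0.78 in doxorubicin hearts (SD, n = 3), with a 2-sided exact permutation p of 0.2, where 3 against 3 cannot go below 0.1. Control ratios rested on 43 to 57 counts of Ppargc1a and 31 to 45 of Ppargc1b. In doxorubicin heart 1 Ppargc1b had 21 counts. Counting error of the ratios was not estimated, so the small control SD does not show how precisely each ratio was measured.

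The Esrra to Esrrg ratio was 17.3, 10.1 and 10.4 in control hearts and 6.17, 10.4 and 3.50 in doxorubicin hearts, again with doxorubicin heart 2 at the control level. The difference of the mean log2 ratio was -1.003 (exact permutation p of 0.3). For Perm1 to Ppargc1a the ratio was 27.8, 19.9 and 25.5 in control hearts and 11.4, 25.4 and 11.6 in doxorubicin hearts, a log2 difference of -0.69 (exact permutation p of 0.2). Ppargc1a to Esrra differed by 0.79 (exact permutation p of 0.3) and Ppara to Ppard by 0.53 (exact permutation p of 0.5). The groups overlapped in all 5 ratios, and the p-values adjusted over the 5 were 0.375 to 0.5 in these exact permutation tests.

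**Figure D3:**
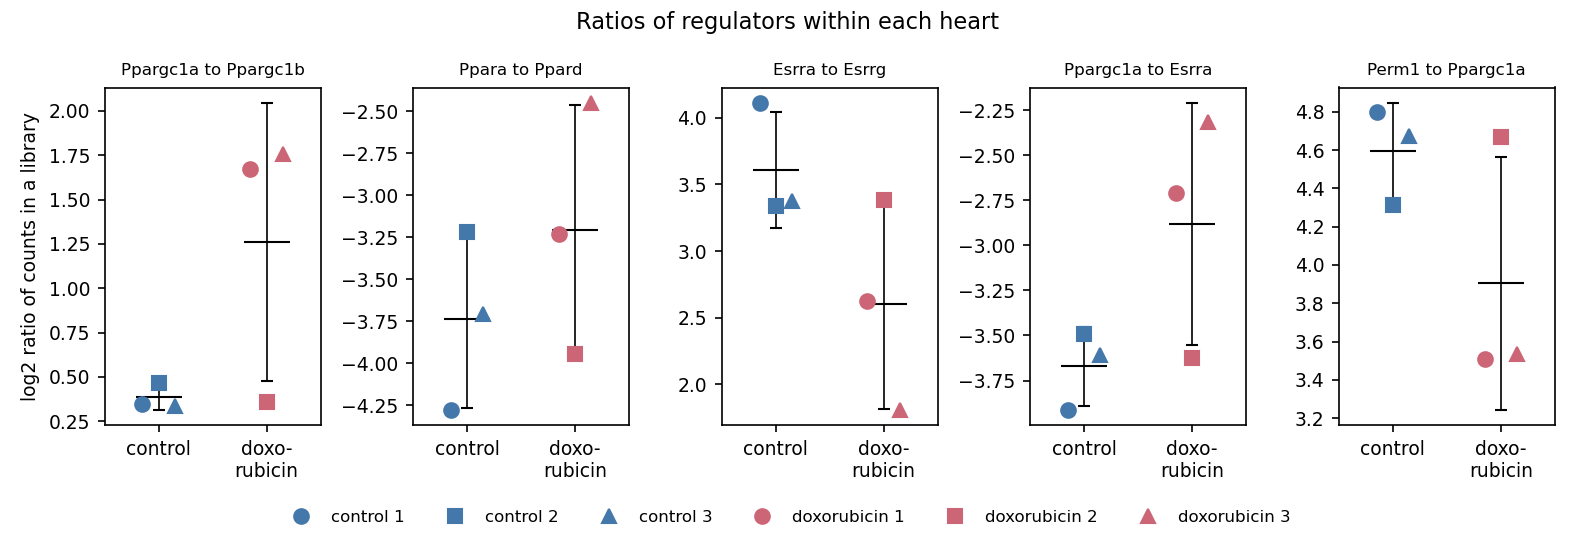
Log2 ratio of the counts of 2 regulators within each heart (vertical axes, not starting at 0 because the values are logarithms), control in blue and doxorubicin in red, with the mean and SD of each group in black. For Ppargc1a to Ppargc1b the controls lie between 0.34 and 0.47, doxorubicin hearts 1 and 3 at 1.67 and 1.76, and doxorubicin heart 2 at 0.36.

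Genes whose 6 values ran closest to those of Esrrg and Esrra, the regulators with the smallest p-values, were sought among 8606 symbols with a mean of at least 5 CPM, by the root-mean-square difference of log2 CPM after centring each gene on its own mean. For Esrrg they were Cyria (0.10), Afmid (0.11) and Gpr22 (0.12), against a deviation of 0.51 for Esrrg around its own mean. Gpr22, an orphan receptor gene of heart and brain, was at 98.9, 128 and 105 CPM in control hearts and at 165, 115 and 286 CPM in doxorubicin hearts, with doxorubicin heart 3 the highest, as for Esrrg. For Esrra they were Nprl2 (0.06), Hmg20b (0.06) and Pisd (0.07), against 0.28 for Esrra itself. These are descriptions of a pattern over 6 libraries, with no test.

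Partners and coregulators that act with these factors were followed as a list of 34 genes, of which 29 were tested. Mef2c, Ep300 and Kat2b were not among the symbols counted, and Pparg and Carm1 had at most 3 counts in any heart. The list says nothing of these genes. In edgeR's test 0 of 29 passed the adjusted threshold, 1 had an unadjusted p under 0.05 (8.10% of all symbols) and 1 did not overlap (13.4% of all symbols), and the median log2 fold change was 0.09. Ncoa3, a steroid receptor coactivator, was that gene, at 11.1, 14.2 and 14.8 CPM in control and 15.7, 21.5 and 30.7 CPM in doxorubicin hearts, with a log2 fold change of 0.76 (SE 0.30; edgeR adjusted p 0.511). Doxorubicin heart 3 was the highest for 14 of the 29, against 20.6% of all symbols, and the list's median was -0.075 without it.

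Genes of mitochondrial DNA copying and transcription, the step that TFAM serves, were a list of 24 with 22 tested. Of these 0 passed the adjusted threshold in edgeR, 0 had an unadjusted p under 0.05 (the tested symbols as a whole gave 8.10%), and DESeq2 gave 0 past the adjusted threshold. The log2 fold changes ran from -0.44 to 0.46 with a median of -0.08, and for Polrmt, the mitochondrial RNA polymerase gene, the value was 0.07 (SE 0.20; edgeR adjusted p 0.957).

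The list of 35 lipid targets of the PPAR receptors was chosen with earlier results of these data known. Its counts are therefore a description and not an independent test. Of the 35 targets 33 were tested, and 26 lay below 0, with a median log2 fold change of -0.29. At an unadjusted p under 0.05 in edgeR 12 were lower and 1 higher, against 4.11% lower and 4.00% higher of all symbols. The 13 became 5 without doxorubicin heart 1 and 7 without control heart 3. In those fits 631 of 9426 and 636 of 9404 symbols in all had such a p. No overlap between groups was seen for 12 lower targets, against 7.06% of symbols, and for 1 higher target, against 6.39%. Ucp3, a mitochondrial carrier gene, was the single target past the adjusted threshold, where 0.0326% of symbols were lower: it was at 35.5, 30.7 and 52.5 CPM in control and 2.89, 8.74 and 6.19 CPM in doxorubicin hearts, and fell by 2.73 on the log2 scale (SE 0.35; edgeR adjusted p 0.0194). Without control heart 1, control heart 3, doxorubicin heart 1 or doxorubicin heart 3 its log2 fold change was -2.80, -2.47, -2.41 and -2.75, with edgeR adjusted p-values of 0.105, 0.182, 0.0695 and 0.0817, and 0 symbols in all passed in each of these fits. Pdk4, a kinase gene that holds back pyruvate oxidation, Acads, a short-chain acyl-CoA dehydrogenase gene, and Mlycd, malonyl-CoA decarboxylase, had log2 fold changes of -1.64, -0.97 and -0.55 and edgeR adjusted p-values of 0.0791, 0.125 and 0.477, with each doxorubicin heart below each control. In DESeq2 and in edgeR with no filter, 3 targets passed, Ucp3, Pdk4 and Acads. The log2 fold changes of the receptor genes themselves were 0.58 for Ppara and -0.16 for Ppard, neither past the test. Each sign turned without 1 heart: Ppara was at -0.049 without doxorubicin heart 3, and Ppard at 0.11 without control heart 1.

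Energy targets of the estrogen-related receptors and PGC-1 were a list of 30 with 24 tested. This list too was chosen with earlier results of these data known, so its counts are a description and not an independent test. Among those not tested, Cox7a1 was not among the symbols counted, Pdha1 and Cox6a2 had 0 counts in all 6 hearts and Ldhb at most 1. The reason was not tested, and the list says nothing of these genes. Of the 24 tested, 0 passed the adjusted threshold in edgeR, and 5 were lower and 0 higher at an unadjusted p under 0.05, against 4.11% lower and 4.00% higher of all symbols. There were 3 at that threshold without control heart 1 (5.61% of all symbols in that fit) and without doxorubicin heart 3 (6.42%). The log2 fold change lay below 0 for 21 of 24 (47.9% of all symbols), with a median of -0.28, and 11 were lower with no overlap between groups (7.06% of all symbols). Control heart 1 had the list's highest mean log2 CPM, 10.73 against 10.28 to 10.52 elsewhere, and the list's median was -0.19 without it. Uqcrc1, a complex III subunit gene, Ckmt2, the mitochondrial creatine kinase gene, and Sdhb, a complex II subunit gene, had log2 fold changes of -0.66, -0.57 and -0.46 with groups that did not overlap and edgeR adjusted p-values of 0.360, 0.366 and 0.575. Esrra, with -0.38, lay on the same side and Esrrg, with 0.73, on the other. The difference between the regulators and their targets was not tested. The summed level of cardiomyocyte markers given above was also lower in each treated heart, although Pln and Csrp3 had log2 fold changes above 0. The part of that lower sum in the lower targets was not tested.

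**Figure D4:**
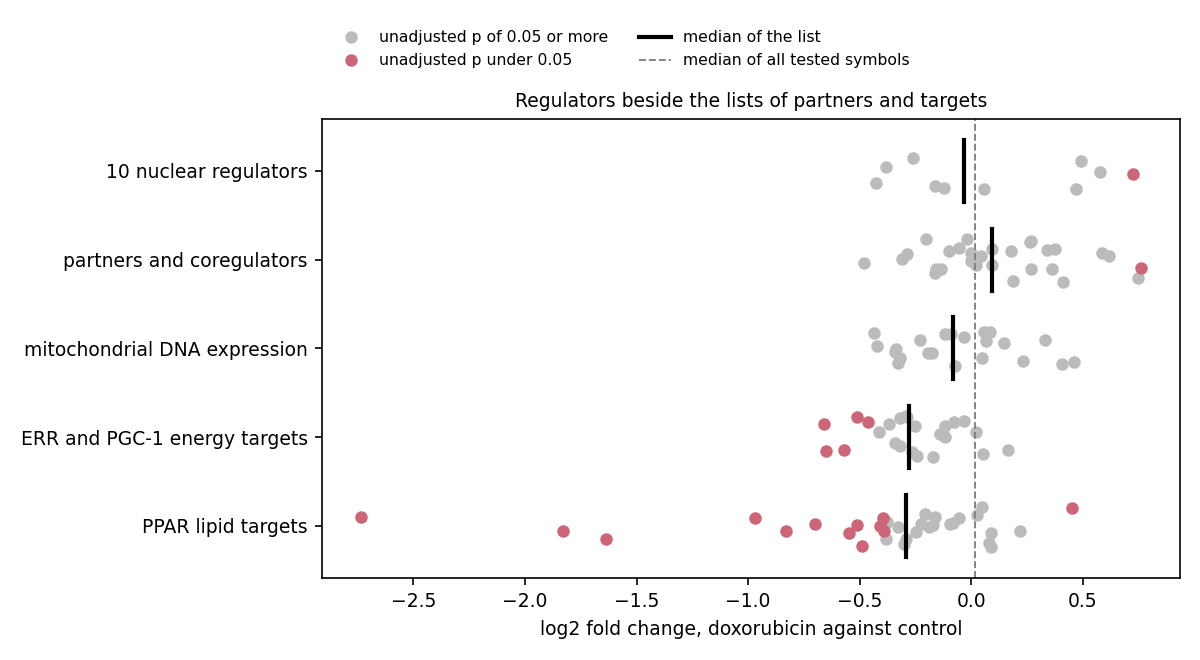
Log2 fold change of doxorubicin against control (horizontal axis) for each tested gene of the 10 regulators and of the 4 lists of partners and targets, with the list's median as a black bar, the median of all tested symbols (0.02) as a dashed line and genes with an unadjusted p under 0.05 in red; vertical scatter within a row has no meaning. The 2 lists of target genes have medians of -0.29 and -0.28, and the regulators one of -0.03.

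Gene span moved with the fold changes of all genes. Across 8987 tested symbols with a span in the GRCr8 RefSeq annotation, log2 fold change was higher for longer spans (Spearman's rho 0.218, across genes, which are not independent replicates), and the 2996 symbols with the longest spans had a median of 0.09 against -0.07 for the 2996 shortest. The 5 regulators above 0 (Ppargc1a, Esrrb, Esrrg, Ppara and Nrf1) all belong to the longest group, as do Ppargc1b and Ppard, while Perm1, Esrra and Tfam belong to the shortest. After a correction for span, chosen after the data were seen, the log2 fold change was 0.30 for Ppargc1a, 0.55 for Esrrg, 0.45 for Ppara and 0.37 for Nrf1. It was -0.090 for Esrrb, -0.54 for Ppargc1b and -0.30 for Ppard among the other long genes, and -0.19, -0.35 and -0.10 for Perm1, Esrra and Tfam. In that fit 0 of 10 had an unadjusted p under 0.05 in edgeR, against 8.94% of symbols in that fit. The part of span in these differences was otherwise not tested.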

How the data were processed

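Per the submitters' processing notes, FastQC, Trimmomatic, STAR and HTSeq were used with the rat assembly mRatBN7.2; versions, annotation, counting mode and strand setting are not given in the sources used here. The authors deposited raw counts per gene name for 6 libraries in 1 table of 18473 rows, and rows of a symbol were summed (17487 symbols). Libraries held 2219685 to 3508282 counts, and 3 counts, taken as the floor, are 0.852 to 1.33 CPM.

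Groups came from the sample titles. Doxorubicin was tested against control with edgeR's quasi-likelihood test (edgeR 4.0.16, R 4.3.3; TMM, filterByExpr with minimum counts of 10 and 15, robust dispersion, treatment only), adjusted by Benjamini-Hochberg over 9205 symbols at 0.05. SE is the log2 fold change divided by the square root of F, and 95% intervals use the fit's degrees of freedom. Per the labels the 6 libraries are biological replicates from 6 rats. Ratios used 2-sided exact permutation tests on counts plus 0.5 (scipy 1.17.1).

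The 10 genes, the lists and the alternatives were chosen with earlier results of these data known. Named list genes were those past the adjusted threshold and, per list, up to 4 with the largest change among those with at least 5 CPM, an unadjusted p under 0.05 and groups that do not overlap; Polrmt, the values of Gpr22 and the markers named were chosen after values were seen. Levels were not compared between genes, because transcript lengths were not used here. DESeq2 1.42.0, limma voom 3.58.1, 3 other scalings, 2 other filters, non-robust dispersion, a replicate block, unsummed rows and leaving out each library were alternatives, and a gene span correction was added after seeing the data.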

Additional observations from a re-analysis of the deposited data

How the results depend on the processing

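Depth limits the least counted regulators, Esrrb, Nrf1, Ppargc1b and Ppara, which have 12 to 87 counts per library. In all 18 alternatives 0 of the 10 regulators passed the adjusted threshold (lowest adjusted p 0.309, Esrrg without doxorubicin heart 2), and Ppargc1a, Ppargc1b, Perm1, Esrra, Esrrg, Nrf1 and Tfam kept their sign. The causes were not tested.

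The count of all symbols past the threshold, 5, was 0 with library size only (713 at an unadjusted p under 0.05), 61 with no filter, 1 with non-robust dispersion, 74 with DESeq2, 0 with limma voom (740 unadjusted), 9 with the gene span correction and 0 to 35 without 1 library. The count of regulators at an unadjusted p under 0.05, 1, was 0 with the gene span correction (803 of 8987 symbols) and with voom (740 of 9205). It was 0 to 4 without 1 library, where 531 of 9465 to 895 of 9387 symbols were under it. Regulators whose groups do not overlap, 1, were 1 to 5 without 1 library, where 20.5% to 26.4% of all symbols did not overlap. PPAR targets past the threshold, 1, were 0 with library size only, 3 with no filter, 3 with DESeq2, 0 with voom and 0 to 1 without 1 library.

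Same-numbered hearts are different animals and did not deviate together (mean correlation -0.073 over 3 pairs, -0.19 to 0.02), and 1 of 6 libraries correlated best with its own number. With the replicate block 13 symbols passed, 0 regulators had an unadjusted p under 0.05 and 2 PPAR targets passed. At an unadjusted p under 0.05 the block left 8 of 13 PPAR targets and 3 of 5 energy targets. Of all 9205 symbols 607 were under it with the block, against 746 with no block. With the span correction and the replicate block 17 symbols passed, 0 regulators had an unadjusted p under 0.05 (642 of 8987 symbols did) and 2 PPAR targets passed.

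Signs turned for Esrrb (0.06 with all libraries; -0.090 with the span correction, -0.12 with that and the replicate block, -0.043 with voom, -0.046 without control heart 1, and -0.40 to 0.30 without 1 library), for Ppard (0.11 without control heart 1; -0.32 to 0.11 without 1 library) and for Ppara (-0.049 without doxorubicin heart 3; -0.049 to 0.87 without 1 library). The mitochondrial DNA list's median became 0.0020 under library size alone, where all symbols together had a median of 0.10 in place of 0.02, and -0.14 to 0.0022 without 1 library (highest without control heart 3). The partner list's median was -0.075 to 0.22 without 1 library (lowest without doxorubicin heart 3). The medians of both target lists stayed below 0 in all 18. The 5 ratios kept their sign with a prior of 0.1 or 2 counts and without each library. Levels per coding length, planned, were not run because no coding lengths were used here.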
